A study of Mus musculus with 20 samples.

Results

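The 33 genes described here carry out glycolysis or answer to low oxygen in mouse cells. They were taken by name: hexokinases, the other enzymes from glucose to lactate, glucose and lactate transporters, regulators of the pathway, and hypoxia response genes with the transcription factor gene Hif1a. All 33 were found among the 55259 genes to which the deposited transcripts were summed, and all 33 passed the filter on low counts in every comparison. RNA came from CD8 T cells and 3 myeloid populations sorted by the integrins CD11c and CD11b from MC38-OVA tumours, a mouse colon carcinoma line that expresses ovalbumin, in C57BL/6 mice. The treatment pools were radiotherapy (RT, 8 Gy on day 12) with both antibodies, RT with anti-PD-1, RT with anti-SIRPa, RT alone, and untreated (sham-irradiated) tumours. Anti-SIRPa was given at 400 µg on 3 days from day 12, and anti-PD-1 at 250 µg on 2 days from day 12. Each of the 20 groups was 1 library from leukocytes pooled from 10 tumours, 1 per mouse, taken on day 17, 5 days after RT. Each pool gave all 4 populations of its treatment, and no group had a second library.

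Glycolysis splits glucose into pyruvate, and cells that use it heavily reduce the pyruvate to lactate and export it. When oxygen is short, prolyl hydroxylases stop marking HIF-1α (Hif1a) for destruction, and the stabilised factor raises transcription of most glycolytic enzymes, of Slc2a1, and of genes such as Vegfa, Bnip3 and Egln3. In tumours this program is known from macrophages of poorly perfused regions, and activated T cells also raise glycolysis when they divide.

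The libraries held 21.5 to 35.7 M (mega) estimated counts. Levels are counts per M counts (CPM) after TMM normalisation, and tests are edgeR's quasi-likelihood F-test with Benjamini-Hochberg adjustment over all genes, called edgeR adjusted p, with 0.05 as the limit. Since no group was repeated, p-values measure spread between treatment pools and not between pools of like treatment. Itgam, the CD11b gene, stood at 60.1 to 117.9 CPM in CD11c+CD11b- cells against 1259 to 1654 CPM in CD11c+CD11b+ cells. Itgax, the CD11c gene, stood at 264.6 to 410.8 CPM in both CD11c+ populations against 70.8 to 123.0 CPM in CD11c-CD11b+ cells. The library labelled untreated CD8 T went against its label: Cd8a was at 48.5 CPM there, against 753.4 to 1205 CPM in the 4 irradiated CD8 T libraries. The summed level of 12 macrophage markers was 18995 CPM in the library labelled untreated CD8 T, against 1242 to 2703 CPM in the irradiated CD8 T libraries. Comparisons of CD8 T with myeloid cells are given with and without it.

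Compared per length, which makes genes of different size comparable, Pkm, Aldoa, Ldha and Eno1 were the 4 most abundant members in every population. Pkm is pyruvate kinase, the last step to pyruvate. Over the 4 irradiated libraries of each population it averaged 699.0 CPM per kilobase in CD8 T cells and 565.8 in CD11c+CD11b- cells. In the same libraries it averaged 962.8 in CD11c+CD11b+ cells and 1045 in CD11c-CD11b+ cells. Gapdh was left out of this order. Its own rows held 73753 counts over all libraries, while 90 near-identical copies elsewhere in the genome held 1130135, or 93.9% of the sum, so the level of Gapdh itself is uncertain. Copies also held 17.7% of the sum for Eno1, 13.4% for Pgk1 and 12.1% for Pgam1, and 1.2% for Pkm. Eno2, the neuronal enolase, had the lowest mean per length in each population, at 0.752 to 1.74 CPM per kilobase.

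**Figure D1:**
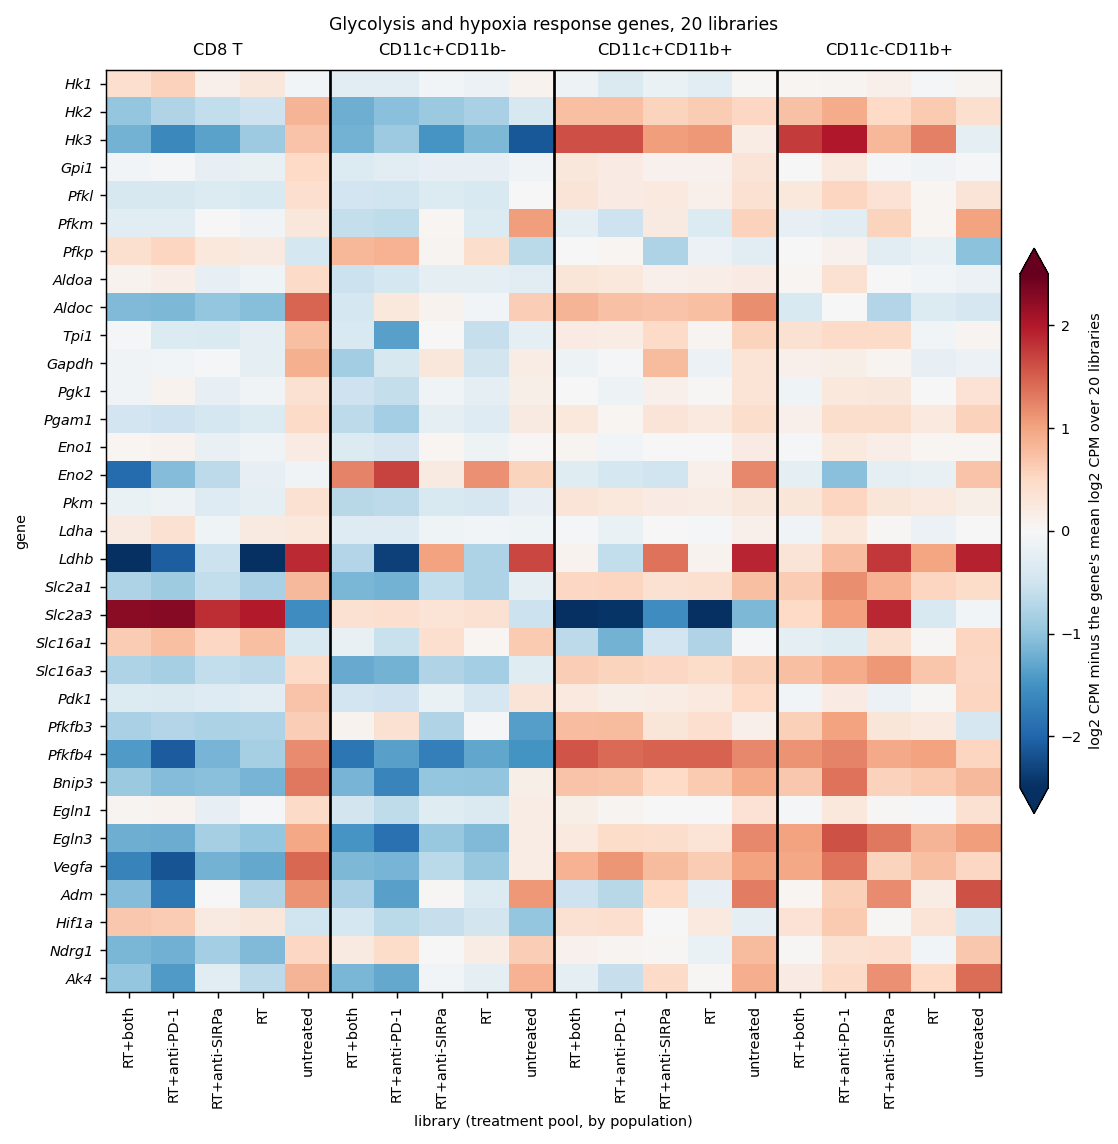
Heat map of the 33 genes (rows) in 20 libraries (columns, grouped by population), coloured by log2 CPM minus the gene's mean over all libraries, with colours saturated at the ends of the scale. The CD11c+CD11b- columns are mostly blue and the columns of both CD11b+ populations mostly red, while the library labelled untreated CD8 T differs in colour from the 4 irradiated CD8 T libraries.

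CD11c+CD11b- cells were set against CD11c+CD11b+ cells of the same pools, with the pool as a block. In CD11c+CD11b- cells 26 of the 33 genes were lower and 2 were higher. Over all genes tested 22.3% were lower and 23.1% higher, and the median log2 fold change was -0.62 for the 33 genes and 0.00 for all genes. The set included both hexokinases that are induced or myeloid (Hk2, Hk3), the hypoxia-induced transporters Slc2a1 and Slc16a3, and the response genes Vegfa, Bnip3 and Egln3. Slc2a3 and Slc16a1 were the 2 genes that were higher.

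Glucose enters through GLUT1 (Slc2a1) and the high-affinity GLUT3 (Slc2a3), and their genes differed in opposite directions. Slc2a1 had 109.4, 112.3, 145.7, 162.2 and 209.8 CPM in the 5 CD11c+CD11b- libraries, against 322.7, 326.3, 353.2, 359.9 and 415.0 CPM in the 5 CD11c+CD11b+ libraries. The groups did not overlap, and the log2 fold change was -1.36 ± 0.13 (SE, edgeR adjusted p = 0.000216). Slc2a3 had 39.6, 72.1, 74.1, 74.6 and 76.7 CPM in CD11c+CD11b- cells, against 7.73, 8.63, 10.4, 19.4 and 26.4 CPM in CD11c+CD11b+ cells. Every CD11c+CD11b- library was again outside the other group, here above it, with a log2 fold change of 2.30 ± 0.42 (edgeR adjusted p = 0.00381). As a share of both transporters per length, Slc2a3 made up 28.9 to 37% in irradiated CD11c+CD11b- libraries against 1.58 to 4.46% in irradiated CD11c+CD11b+ libraries.

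The lactate exporters MCT1 (Slc16a1) and MCT4 (Slc16a3, the exporter of highly glycolytic cells) showed the same split. Slc16a3 had 76, 80, 100.4, 107.9 and 147.6 CPM in CD11c+CD11b- cells, against 249.4, 261.8, 267.0, 275.2 and 279.0 CPM in CD11c+CD11b+ cells, with no overlap (log2 fold change -1.48 ± 0.14, edgeR adjusted p = 0.000176). Slc16a1 averaged 54.4 ± 17.8 CPM in CD11c+CD11b- cells and 33.3 ± 9.93 CPM in CD11c+CD11b+ cells (SD, n = 5 pools each). Those ranges overlapped across pools, but within every pool Slc16a1 was higher in CD11c+CD11b- cells (log2 fold change 0.64 ± 0.08, edgeR adjusted p = 0.000587).

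Among the hexokinases, which commit glucose to the cell, the inducible Hk2 and the leukocyte enzyme Hk3 were lower and the ubiquitous Hk1 was not. Hk2 had 104.3, 117.6, 128.0, 139.0 and 184.5 CPM in CD11c+CD11b- cells, against 349.8, 357.5, 376.9, 408.1 and 408.9 CPM in CD11c+CD11b+ cells (log2 fold change -1.58 ± 0.14, edgeR adjusted p = 0.000138). Hk3 had 19.3, 30.2, 37, 38.5 and 44.9 CPM in CD11c+CD11b- cells, against 94.9, 172.7, 178.9, 256.6 and 257.5 CPM in CD11c+CD11b+ cells (log2 fold change -2.53 ± 0.09, edgeR adjusted p = 5.88e-06). Neither gene's groups overlapped. Hk1 averaged 187.2 ± 19.3 CPM in CD11c+CD11b- cells and 180.1 ± 18.5 CPM in CD11c+CD11b+ cells, a difference within the spread (edgeR adjusted p = 0.975). Per length Hk1 thus held 51.3 to 57.1% of hexokinase transcripts in irradiated CD11c+CD11b- libraries, against 18.8 to 25.5% in irradiated CD11c+CD11b+ libraries.

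Of the phosphofructokinases, the liver-type Pfkl was lower in CD11c+CD11b- cells by a log2 fold change of -0.65 ± 0.07 (edgeR adjusted p = 0.000278). The platelet-type Pfkp averaged 427.2 ± 162.8 CPM in CD11c+CD11b- cells and 281.5 ± 58.2 CPM in CD11c+CD11b+ cells (edgeR adjusted p = 0.0903, n = 5 pools each), and did not pass. The muscle-type Pfkm did not pass either, at 17.6 ± 10.1 CPM in CD11c+CD11b- cells and 17 ± 5.58 CPM in CD11c+CD11b+ cells. PFKFB enzymes set the level of the activator of phosphofructokinase. Pfkfb4, one of them and a HIF target, had the largest drop of the 33 genes, to 8.2 to 11.7 CPM in CD11c+CD11b- cells against 66.5 to 85.2 CPM in CD11c+CD11b+ cells (log2 fold change -3.02 ± 0.11, edgeR adjusted p = 5.88e-06). Pfkfb3, its paralogue, was lower by -0.87 ± 0.17 on the log2 scale (edgeR adjusted p = 0.00577), with overlapping ranges.

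The shared middle and lower steps moved by less. Pkm had 1173, 1212, 1419, 1461 and 1656 CPM in CD11c+CD11b- cells, against 2167, 2188, 2272, 2296 and 2380 CPM in CD11c+CD11b+ cells (log2 fold change -0.78 ± 0.10, edgeR adjusted p = 0.000669). Gpi1, Aldoa, Aldoc, Tpi1, Gapdh, Pgk1, Pgam1 and Eno1, which catalyse the steps between the hexokinase and pyruvate kinase reactions, were all lower, by log2 fold changes of -0.86 (Tpi1) to -0.27 (Eno1). Ldha, which makes lactate, averaged 852.7 ± 71.7 CPM in CD11c+CD11b- cells and 953.6 ± 68.9 CPM in CD11c+CD11b+ cells, a log2 fold change of only -0.22 ± 0.07 (edgeR adjusted p = 0.0325). Ldhb, the form that favours pyruvate, was scarce, at 3.46 ± 3.3 CPM in CD11c+CD11b- cells and 4.77 ± 3.41 CPM in CD11c+CD11b+ cells (log2 fold change -0.77 ± 0.22, edgeR adjusted p = 0.0261). Ldha held at least 98.7% of lactate dehydrogenase transcripts per length in every library. Pdk1, the kinase that shuts pyruvate dehydrogenase, was lower by -0.57 ± 0.09 on the log2 scale (edgeR adjusted p = 0.00185).

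The hypoxia response genes were lower as well, apart from Ndrg1. Vegfa, the angiogenic growth factor, had 93.7, 95.8, 109.3, 132.0 and 236.6 CPM in CD11c+CD11b- cells, against 326.7, 364.1, 380.6, 421.3 and 450.9 CPM in CD11c+CD11b+ cells (log2 fold change -1.68 ± 0.19, edgeR adjusted p = 0.000453). Bnip3, a mitophagy receptor, had 26.8, 37.2, 42, 42.6 and 92 CPM in CD11c+CD11b- cells, against 117.7, 131.0, 134.9, 136.2 and 158.1 CPM in CD11c+CD11b+ cells (log2 fold change -1.67 ± 0.20, edgeR adjusted p = 0.000556). Egln3, an oxygen-sensing prolyl hydroxylase that HIF itself induces, had 18, 23.8, 30.5, 34.2 and 75.4 CPM in CD11c+CD11b- cells, against 77.6, 83.8, 88.8, 91.2 and 151.2 CPM in CD11c+CD11b+ cells (log2 fold change -1.63 ± 0.18, edgeR adjusted p = 0.000365). None of these 3 genes overlapped between the groups, and in each the untreated CD11c+CD11b- library was the highest of its population. Hif1a itself was lower too, at 275.0 ± 38.1 CPM in CD11c+CD11b- cells and 478.3 ± 86 CPM in CD11c+CD11b+ cells (log2 fold change -0.85 ± 0.09, edgeR adjusted p = 0.000315). Egln1, the main hydroxylase of HIF, was lower by -0.49 ± 0.08 (edgeR adjusted p = 0.0028), and Ak4, a mitochondrial adenylate kinase, by -0.54 ± 0.12 (edgeR adjusted p = 0.00999). Adm, the peptide hormone adrenomedullin, had a log2 fold change of -0.40 ± 0.12 (edgeR adjusted p = 0.0364). Ndrg1, a stress and differentiation gene, did not pass, at 220.3 ± 36.4 CPM in CD11c+CD11b- cells and 204.5 ± 59.1 CPM in CD11c+CD11b+ cells.

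Of these 28 calls, 4 were lost when 1 pool was left out. Without the pool given RT with both antibodies, the edgeR adjusted p was 0.123 for Eno1, 0.101 for Ldha, 0.0712 for Ldhb and 0.0632 for Adm. The same was seen for Eno1, Ldha, Ldhb and Adm without RT alone, for Eno1, Ldha and Adm without RT with anti-PD-1, for Ldha and Adm without RT with anti-SIRPa, and for Adm without the untreated pool. With no pool term 9 of the 28 calls were lost, those of Adm, Ak4, Eno1, Gapdh, Ldha, Ldhb, Pfkfb3, Pgk1 and Slc16a1, and 35.8% of all genes passed. Markers of other cell types moved with the contrast. The summed level of 12 macrophage markers ran from 574.7 to 1292 CPM in CD11c+CD11b- libraries against 7516 to 14203 CPM in CD11c+CD11b+ libraries, and none was at 0 in a library. The summed level of 6 NK cell markers ran from 913.8 to 1230 CPM in CD11c+CD11b- libraries against 36.4 to 55.3 CPM, and that of 12 CD8 T cell markers from 420.7 to 712.1 CPM against 19.8 to 33.3 CPM in CD11c+CD11b+ libraries, again with none at 0. Their part in the result was not tested, and in sorted bulk RNA fewer cells of a type cannot be told apart from less RNA per cell.

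**Figure D2:**
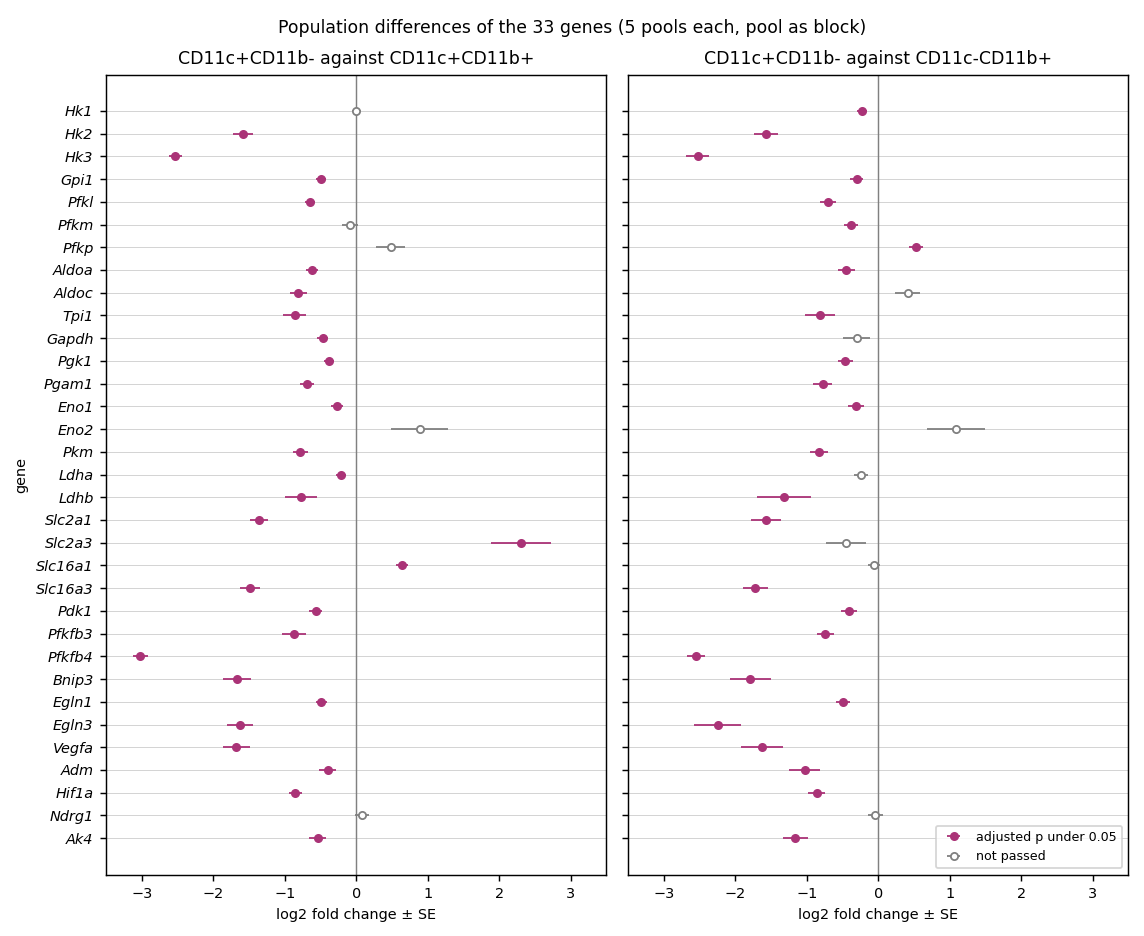
Log2 fold change ± SE of the 33 genes in CD11c+CD11b- cells against CD11c+CD11b+ cells (left) and against CD11c-CD11b+ cells (right), with 5 pools per population. Filled points passed the limit on the edgeR adjusted p. Most points lie left of 0 in both panels, with Slc2a3 and Slc16a1 as the filled points right of 0 in the left panel and Pfkp in the right panel.

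Set against CD11c-CD11b+ cells, sorted without surface CD11c, the CD11c+CD11b- cells were lower for 25 of the 33 genes and higher for 1, where 24.1% of all genes were lower and 23.0% higher. The median log2 fold change was -0.70. Egln3 averaged 36.4 ± 22.7 CPM in CD11c+CD11b- cells and 150.2 ± 32.2 CPM in CD11c-CD11b+ cells (log2 fold change -2.25 ± 0.33, edgeR adjusted p = 0.00162). Slc2a1 averaged 147.9 ± 41.2 CPM in CD11c+CD11b- cells and 419.3 ± 89.1 CPM in CD11c-CD11b+ cells (-1.57 ± 0.21, edgeR adjusted p = 0.00113). Hk3, Pfkfb4, Bnip3 and Slc16a3 were lower by -2.53, -2.55, -1.79 and -1.72, each without overlap. Hk2 was lower by -1.57, Vegfa by -1.63, Pkm by -0.83 and Hif1a by -0.86, also without overlap.

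The gene that was higher was Pfkp, at 427.2 ± 162.8 CPM in CD11c+CD11b- cells and 274.5 ± 72.2 CPM in CD11c-CD11b+ cells (log2 fold change 0.53 ± 0.10, edgeR adjusted p = 0.00424). Slc2a3 did not pass here, at 67.4 ± 15.7 CPM in CD11c+CD11b- cells and 101.3 ± 67.8 CPM in CD11c-CD11b+ cells, where single libraries ranged from 44 to 211.8 CPM. Ldha did not pass either (-0.24 ± 0.10, edgeR adjusted p = 0.0913), while Ldhb was lower by -1.32 ± 0.38 (edgeR adjusted p = 0.0242). Without 1 pool or another, 8 of the 26 calls were lost, namely Hk1, Gpi1, Pfkm, Aldoa, Tpi1, Eno1, Ldhb and Pdk1. Without the pool given RT with both antibodies, all 8 were lost, with edgeR adjusted p from 0.0569 (Tpi1) to 0.124 (Eno1). Other pools ended fewer of them: without RT alone 6 calls were lost, without RT with anti-SIRPa 4, and without RT with anti-PD-1 3. With no pool term 9 of the 26 calls were lost, those of Adm, Ak4, Eno1, Hk1, Ldhb, Pdk1, Pfkfb3, Pfkm and Pfkp, and 35.1% of all genes passed. Macrophage markers summed to 574.7 to 1292 CPM in CD11c+CD11b- libraries against 4418 to 8483 CPM in CD11c-CD11b+ libraries, and NK cell markers to 913.8 to 1230 CPM against 44.8 to 98.1 CPM, with none at 0. The 8 neutrophil markers summed to 24.6 to 143.0 CPM in CD11c+CD11b- libraries, where Cxcr2, Retnlg and Ly6g were each at 0 in at least 1 library, against 726.2 to 3586 CPM in CD11c-CD11b+ libraries. Their part in the result was not tested.

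Between the CD11b+ populations the module was close to level. CD11c+CD11b+ cells were higher than CD11c-CD11b+ cells for 2 of the 33 genes and lower for 7, against 12.0% higher and 12.9% lower over all genes, with a median log2 fold change of -0.06. Slc2a1, Hk2, Hk3, Ldha, Ldhb, Pkm, Vegfa, Bnip3 and Hif1a did not pass. Egln3 was lower, at 98.5 ± 29.9 CPM in CD11c+CD11b+ cells and 150.2 ± 32.2 CPM in CD11c-CD11b+ cells (log2 fold change -0.64 ± 0.16, edgeR adjusted p = 0.0177). HIF target genes outside the 33 were less level: of 24, 0 were higher and 9 lower in CD11c+CD11b+ cells, with a median log2 fold change of -0.21.

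Slc2a3 gave the largest difference between them. It had 7.73, 8.63, 10.4, 19.4 and 26.4 CPM in CD11c+CD11b+ cells, against 44, 54.2, 80.2, 116.2 and 211.8 CPM in CD11c-CD11b+ cells (log2 fold change -2.77 ± 0.34, edgeR adjusted p = 0.00092), and the groups did not overlap. The library with 211.8 CPM, CD11c-CD11b+ cells after RT with anti-SIRPa, also had the highest sum of 8 neutrophil markers, at 3586 CPM against 726.2 to 1810 CPM in the other 4 CD11c-CD11b+ libraries, none of them at 0. That sum was 233.6 to 464.1 CPM in CD11c+CD11b+ libraries, where Ly6g was at 0 in a library, and its part in the difference was not tested. Aldoc, a minor aldolase, was higher in CD11c+CD11b+ cells at 23.4 ± 3.15 CPM against 10.1 ± 1.82 CPM in CD11c-CD11b+ cells (log2 fold change 1.21 ± 0.12, edgeR adjusted p = 0.000457), without overlap. Pfkfb4 was higher by 0.45 ± 0.07 (edgeR adjusted p = 0.00321). Slc16a1, Adm, Ak4, Pfkm and Hk1 were lower, by -0.72, -0.65, -0.63, -0.30 and -0.25.

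The calls of Egln3, Hk1 and Pfkm in this comparison were lost without some pools. Without RT with both antibodies the edgeR adjusted p was 0.0757 for Egln3 and 0.08 for Hk1. Egln3 and Hk1 were also lost without each of the other 3 irradiated pools, and Pfkm without RT alone, RT with anti-SIRPa or the untreated pool. With no pool term, 2 of the 33 genes passed in place of 9, and 5.07% of all genes did.

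CD8 T cells were set against the mean of the 3 myeloid populations. With all libraries 5 of the 33 genes were higher and 11 lower in CD8 T cells, against 19.5% higher and 15.9% lower over all genes. Without the library labelled untreated CD8 T, 5 were higher and 19 lower, against 25.3% and 25.4% of all genes. The 5 that were higher were Slc2a3, Slc16a1, Hk1, Hif1a and Ldha in both fits.

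Slc2a3 had 205.3, 225.5, 272.1 and 278.2 CPM in the 4 irradiated CD8 T libraries and 19.6 CPM in the library labelled untreated CD8 T, against a mean of 61.1 ± 52.6 CPM in the 15 myeloid libraries. Only the CD11c-CD11b+ library with RT and anti-SIRPa, at 211.8 CPM, reached the range of the irradiated CD8 T libraries. The log2 fold change was 2.09 ± 0.43 with the library labelled untreated CD8 T (edgeR adjusted p = 0.00196) and 2.49 ± 0.31 without it (edgeR adjusted p = 1e-05). Per length Slc2a3 made up 46.9 to 59.8% of both glucose transporters in irradiated CD8 T libraries, and 2.45% in the library labelled untreated CD8 T. Slc16a1 had 71, 77.1, 82.8 and 83.1 CPM in irradiated CD8 T libraries and 37.7 CPM in the library labelled untreated CD8 T, against 47.2 ± 16.7 CPM in myeloid libraries (log2 fold change 0.71 ± 0.19 with it and 0.97 ± 0.11 without it). Hk1 was higher by 0.37 ± 0.09 with it and 0.48 ± 0.08 without it, Hif1a by 0.36 and 0.43, and Ldha by 0.27 in both.

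The genes lower in CD8 T cells with and without the library labelled untreated CD8 T included Ndrg1, Slc2a1, Slc16a3, Vegfa, Egln3 and Ak4. Ndrg1 was lower by -0.98 ± 0.15 with it (edgeR adjusted p = 0.000268) and -1.22 ± 0.11 without it (edgeR adjusted p = 3e-07). Egln3 was lower by -0.87 ± 0.24 with it and -1.16 ± 0.22 without it, Ak4 by -0.65 and -0.78, and Slc16a3 by -0.62 and -0.86. Slc2a1 had 133.8, 140.7, 145.7 and 161.0 CPM in irradiated CD8 T libraries and 433.1 CPM in the library labelled untreated CD8 T, against 307.5 ± 132.4 CPM in myeloid libraries. Its log2 fold change was -0.57 ± 0.21 with the odd library (edgeR adjusted p = 0.0418) and -0.90 ± 0.15 without it (edgeR adjusted p = 0.000165). Vegfa was lower by -1.12 ± 0.40 with it and -1.81 ± 0.25 without it, and Ldhb by -1.61 ± 0.43 and -2.32 ± 0.37. Hk2, Hk3, Bnip3, Pfkfb3, Pfkfb4, Aldoc, Pkm and Pdk1 passed only without it. Hk3 was then lower by -1.78 ± 0.18 (edgeR adjusted p = 1.43e-06), Hk2 by -0.84 ± 0.13 (edgeR adjusted p = 6.5e-05), Bnip3 by -1.16 ± 0.20 (edgeR adjusted p = 0.000212) and Pkm by -0.24 ± 0.09 (edgeR adjusted p = 0.037). With that library kept and an irradiated pool left out, 6 members passed without RT alone, 9 without RT with anti-SIRPa, 7 without RT with anti-PD-1 and 4 without RT with both, where 21.2%, 23.5%, 21.9% and 20.8% of all genes passed. The 12 genes whose calls were lost in at least 1 of these 4 fits were Hk1, Pfkl, Pgam1, Eno2, Ldha, Ldhb, Slc2a1, Slc16a1, Slc16a3, Egln3, Vegfa and Hif1a. With no pool term 7 members passed and 25.6% of all genes, and the calls of Adm and Ak4 were lost as well. Gpi1, Aldoa, Tpi1, Gapdh, Pgk1 and Eno1 passed neither with nor without the library labelled untreated CD8 T.

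**Figure D3:**
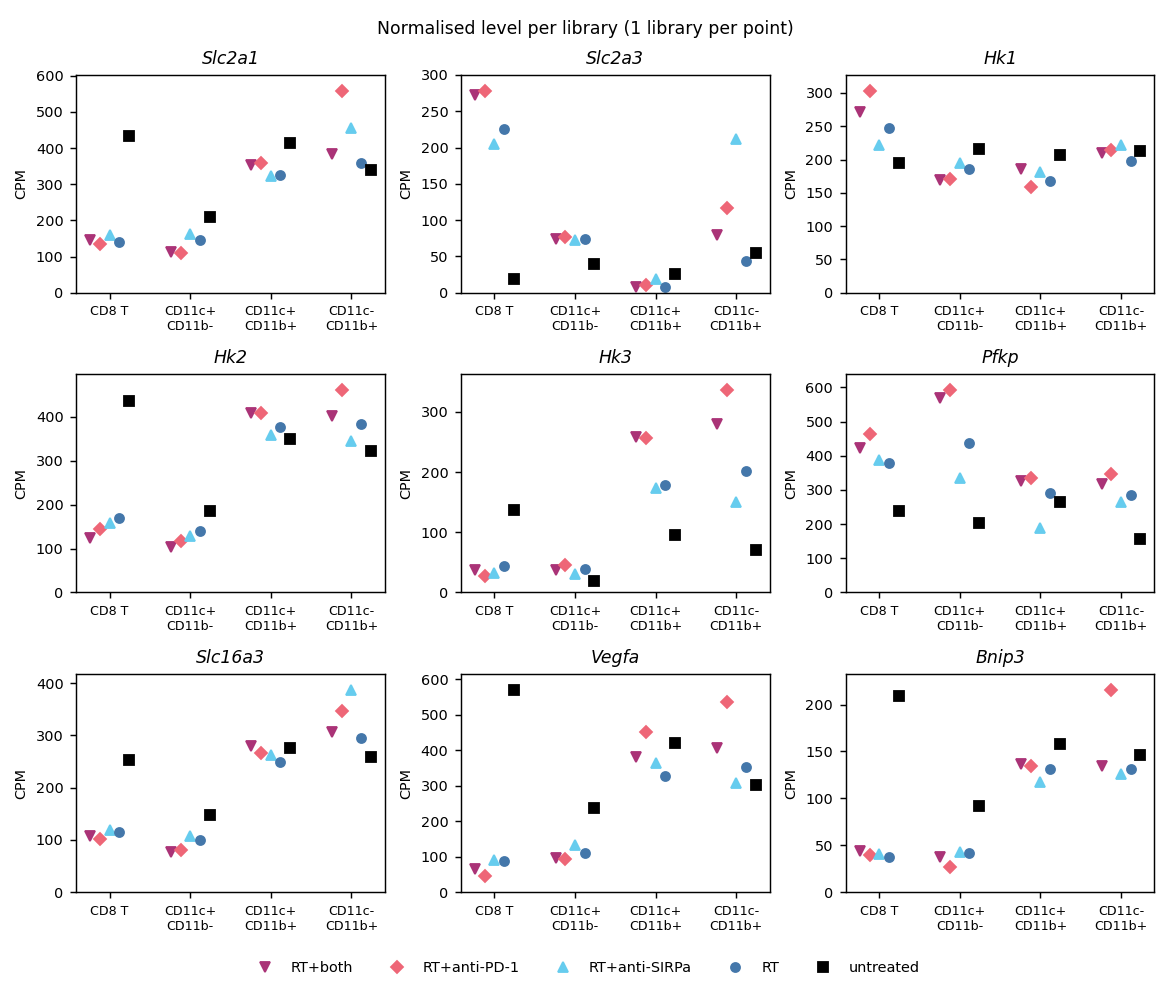
Normalised level (CPM) of 9 genes in each of the 20 libraries, grouped by population, with 1 symbol per treatment pool and no error bars because each point is 1 library. Slc2a1, Hk2, Hk3, Slc16a3, Vegfa and Bnip3 are high in both CD11b+ populations and low in CD11c+CD11b- cells and irradiated CD8 T cells. Slc2a3 is high in irradiated CD8 T cells, and only the CD11c-CD11b+ library with RT and anti-SIRPa, at 211.8 CPM, reaches their range.

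**Figure D4:**
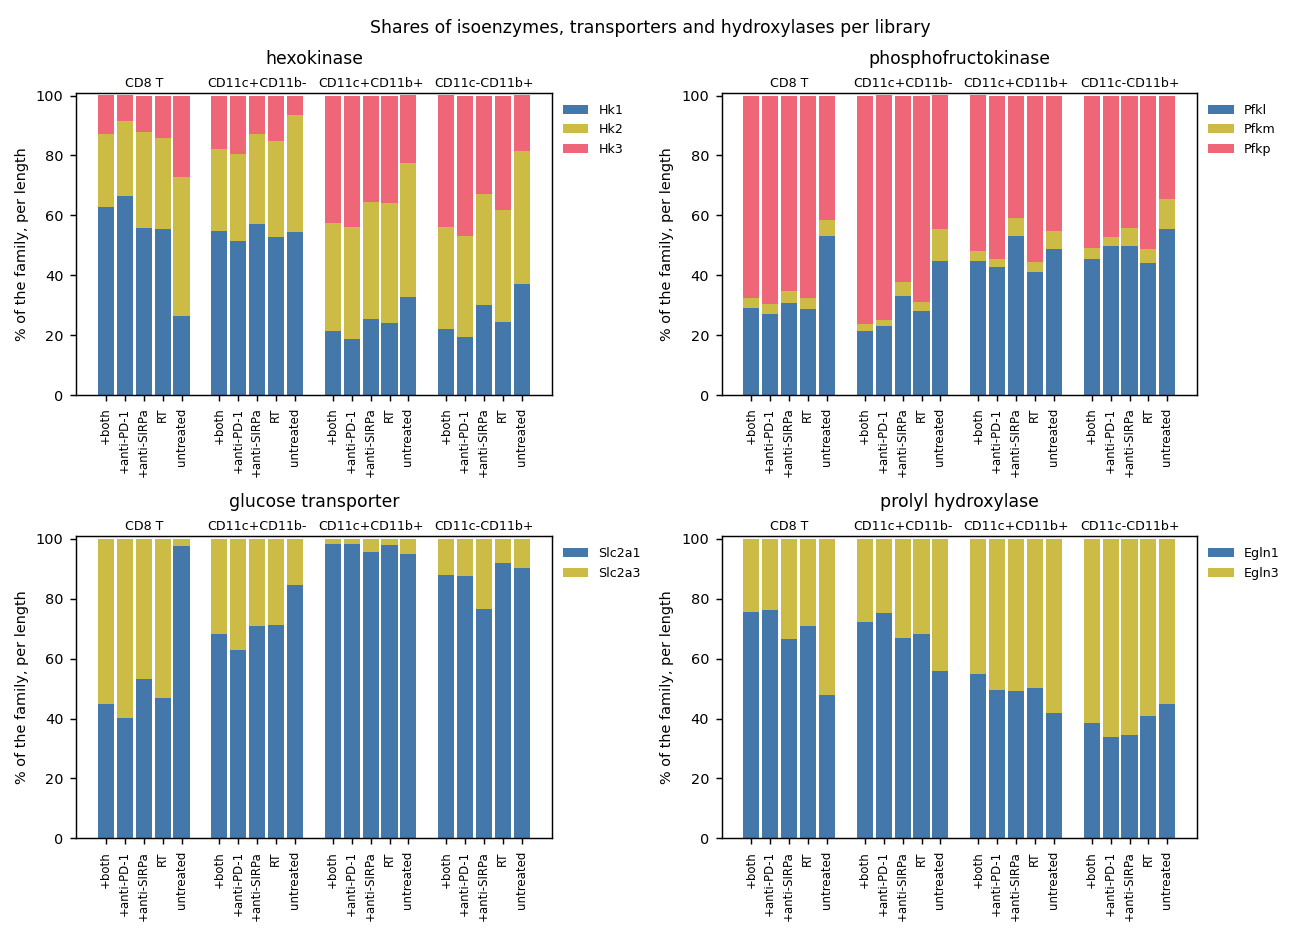
Stacked bars of the share of each family's transcripts, per length, held by each gene in each library (hexokinases, phosphofructokinases, glucose transporters and prolyl hydroxylases), 1 bar per library. Hk1 is the largest segment in CD11c+CD11b- and irradiated CD8 T libraries, where Hk1 held 51.3 to 66.4%, and Slc2a3 takes 46.9 to 59.8% of both transporters in irradiated CD8 T libraries.

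The isoenzyme shares followed the populations. Hk1 held 55.4 to 66.4% of hexokinase transcripts per length in irradiated CD8 T libraries, while Hk2 and Hk3 held the larger part in both CD11b+ populations. Pfkp held 65.1 to 69.7% of phosphofructokinase transcripts in irradiated CD8 T libraries and 62.1 to 76.4% in irradiated CD11c+CD11b- libraries, against 40.9 to 55.5% in irradiated CD11c+CD11b+ libraries and 44.2 to 51.3% in irradiated CD11c-CD11b+ libraries. Egln3 held 24.7 to 33.1% of the 2 hydroxylases in irradiated CD11c+CD11b- libraries and 59.1 to 66.3% in irradiated CD11c-CD11b+ libraries. Shares of a family are a description and were not tested.

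Irradiated pools were set against the untreated pool within each population, 4 libraries against 1. In CD8 T libraries 4 of the 33 genes were higher and 22 lower, against 11.9% higher and 12.5% lower over all genes, but the single untreated library is the one that went against its label. Slc2a3 averaged 245.3 ± 35.6 CPM in irradiated CD8 T libraries (n = 4) and was at 19.6 CPM in the library labelled untreated CD8 T, and Vegfa averaged 72.9 ± 20.7 CPM against 569.8 CPM there. Macrophage markers moved with these differences, as given above, and without that library there is no untreated CD8 T library to compare with. No direction is drawn from it.

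In the 3 myeloid populations no member passed. The edgeR count was 0 of 33 in CD11c+CD11b- cells, 0 of 33 in CD11c+CD11b+ cells and 0 of 33 in CD11c-CD11b+ cells, where 0.0190%, 0.343% and 0.00470% of all genes passed. At an unadjusted p under 0.05 the counts were 18, 15 and 10 in the same order, against 22.6%, 15.8% and 19.0% of all genes. DESeq2 called 15, 3 and 4 members, against 13%, 5.94% and 6.27% of all genes. Without the pool given RT with anti-SIRPa, edgeR called 18 members in CD11c+CD11b- cells, 9 in CD11c+CD11b+ cells and 10 in CD11c-CD11b+ cells, where 14.7%, 7.66% and 16.1% of all genes passed. With terms for the antibodies it called 16 in CD11c+CD11b- cells, 8 in CD11c+CD11b+ cells and 0 in CD11c-CD11b+ cells, where 12.6%, 8.51% and 0.00939% of all genes passed.

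The values themselves show where the untreated library lay. It was the highest of the 5 for 21 members in CD11c+CD11b- cells, 22 in CD11c+CD11b+ cells and 11 in CD11c-CD11b+ cells, against 34.0%, 29.4% and 35.9% of all genes at a mean of 1 CPM or more. It was the lowest of the 5 for 5, 5 and 11 members, against 32.2%, 30.4% and 29.6% of such genes. The library labelled untreated CD8 T was the highest of its 5 for 27 members and the lowest for 5, against 37.0% and 39.9% of such genes. Hk3, Pfkfb3 and Hif1a were lowest in the untreated library of all 3 myeloid populations, and the share of all genes in that position was not counted. Hk3 had 279.9, 335.6, 149.7 and 201.5 CPM in CD11c-CD11b+ cells after RT with both antibodies, RT with anti-PD-1, RT with anti-SIRPa and RT alone, against 70.7 CPM untreated (log2 fold change 1.78 ± 0.46, edgeR adjusted p = 0.178). In CD11c+CD11b+ cells Hk3 averaged 216.4 ± 47 CPM in irradiated pools (n = 4) and was at 94.9 CPM untreated (edgeR adjusted p = 0.128), and in CD11c+CD11b- cells 37.7 ± 6.04 CPM and 19.3 CPM (edgeR adjusted p = 0.0987). Hif1a averaged 538.5 ± 93.7 CPM in irradiated CD11c-CD11b+ pools and was at 309.9 CPM untreated. It averaged 507.9 ± 63.4 CPM in irradiated CD11c+CD11b+ pools and was at 360.0 CPM untreated, and 290.1 ± 20.4 CPM against 214.6 CPM in CD11c+CD11b- pools. None of these differences passed.

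There were 10 members highest in the untreated library of all 3 myeloid populations: Pfkm, Pgk1, Pgam1, Ldhb, Slc16a1, Pdk1, Egln1, Adm, Ndrg1 and Ak4. The 3 untreated libraries share a pool, and the share of all genes highest in all 3 was not counted. Ak4 had 10, 9.12, 21.1 and 18.9 CPM in CD11c+CD11b- cells after RT with both antibodies, RT with anti-PD-1, RT with anti-SIRPa and RT alone, against 40.4 CPM untreated (edgeR adjusted p = 0.138). Vegfa had 95.8, 93.7, 132.0 and 109.3 CPM in CD11c+CD11b- cells in the same order, against 236.6 CPM untreated (log2 fold change -1.14 ± 0.20, edgeR adjusted p = 0.0835). Bnip3 averaged 37.1 ± 7.28 CPM in irradiated CD11c+CD11b- pools and was at 92 CPM untreated, and Egln3 averaged 26.6 ± 7.18 CPM and was at 75.4 CPM untreated. In CD11c-CD11b+ cells Vegfa averaged 400.2 ± 98.8 CPM irradiated and was at 301.2 CPM untreated, so the untreated library was the lowest there. The summed level of 7 fibroblast markers moved with the untreated libraries: it ran from 451.2 to 1636 CPM in irradiated CD11c+CD11b- libraries against 6688 CPM untreated, from 762.7 to 1755 CPM in irradiated CD11c+CD11b+ libraries against 4645 CPM, and from 1301 to 2873 CPM in irradiated CD11c-CD11b+ libraries against 6125 CPM. None of the 7 was at 0 in a library, and the part of fibroblast RNA in these differences was not tested.

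RT alone set against untreated compares 1 library with 1, without a test. Among members at 10 CPM or more in either library, those that differed at least 2-fold were 16 of 31 in CD8 T libraries, against 24.2% of all such genes, with the odd library as the untreated one. They were 8 of 31 in CD11c+CD11b- cells, 2 of 31 in CD11c+CD11b+ cells and 2 of 32 in CD11c-CD11b+ cells, against 14.4%, 7.29% and 9.07% of all such genes. RT with both antibodies set against RT alone gave no member past 2-fold in any of the 4 populations, where 0.708% of genes in CD8 T libraries, 1.62% in CD11c+CD11b- libraries, 0.520% in CD11c+CD11b+ libraries and 0.600% in CD11c-CD11b+ libraries were past it.

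Within the irradiated pools, 2 libraries with anti-PD-1 were set against 2 without it in each population, with anti-SIRPa as a term and 1 residual degree of freedom. In CD11c+CD11b- cells 2 of the 33 genes were higher and 5 lower with anti-PD-1, against 1.20% higher and 2.85% lower over all genes, and the median log2 fold change was -0.27. Pfkp had 568.9 and 591.4 CPM in the 2 pools with anti-PD-1, against 336.1 and 437.4 CPM in the 2 without it (log2 fold change 0.60 ± 0.10, edgeR adjusted p = 0.0345). Pfkfb3 had 185.1 and 226.4 CPM with anti-PD-1, against 102.8 and 169.2 CPM without it (0.63 ± 0.12, edgeR adjusted p = 0.0465). Both act at the phosphofructokinase step. Neither gene's groups overlapped, but with 2 libraries on each side this held for 25 of the 33 members, and the share of all genes was not counted.

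The genes lower with anti-PD-1 in CD11c+CD11b- cells were Ak4, Slc16a1, Pgam1, Slc2a1 and Pgk1. Ak4 had 9.12 and 10 CPM with anti-PD-1, against 18.9 and 21.1 CPM without it (log2 fold change -1.06 ± 0.14, edgeR adjusted p = 0.0228). Slc2a1 had 109.4 and 112.3 CPM with anti-PD-1, against 145.7 and 162.2 CPM without it (-0.47 ± 0.09, edgeR adjusted p = 0.0488). Slc16a1 was lower by -0.60 (edgeR adjusted p = 0.0333), Pgam1 by -0.48 (edgeR adjusted p = 0.0378) and Pgk1 by -0.40 (edgeR adjusted p = 0.0499). Pgk1 did not pass under RLE normalisation (edgeR adjusted p = 0.0508), and with near-identical copies added neither Pgk1 (0.0535) nor Slc2a1 (0.0507) did. Fibroblast markers summed to 451.2 and 497.8 CPM with anti-PD-1 in these cells, against 938.1 and 1636 CPM without it. The 12 macrophage markers summed to 574.7 and 702.2 CPM with anti-PD-1, against 875.8 and 1154 CPM without it, and the 8 markers of cross-presenting dendritic cells to 3017 and 3813 CPM, against 1767 and 3039 CPM. Their part in these differences was not tested.

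In CD8 T cells 2 members were higher and 2 lower with anti-PD-1, against 2.69% higher and 4.26% lower over all genes. Hif1a had 654.9 and 665.8 CPM with anti-PD-1, against 488.6 and 512.5 CPM without it (log2 fold change 0.38 ± 0.07, edgeR adjusted p = 0.0254). Slc2a3 had 272.1 and 278.2 CPM with anti-PD-1, against 205.3 and 225.5 CPM without it (0.34 ± 0.07, edgeR adjusted p = 0.0363). Vegfa had 46.8 and 66.1 CPM with anti-PD-1, against 86.8 and 91.8 CPM without it (-0.70 ± 0.11, edgeR adjusted p = 0.0124), and Ak4 was lower by -0.74 ± 0.15 (edgeR adjusted p = 0.0324). None of the 4 overlapped between the groups, but this held for 24 of the 33 members, and the share of all genes was not counted. Slc2a3 did not pass under RLE normalisation (edgeR adjusted p = 0.0559) or DESeq2 (adjusted p = 0.0621), nor Ak4 under DESeq2 (adjusted p = 0.111). The 12 CD8 T cell markers summed to 4868 and 5181 CPM with anti-PD-1, against 3385 and 3507 CPM without it, and the 12 macrophage markers to 1242 and 1905 CPM, against 2510 and 2703 CPM. Their part in these differences was not tested.

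In CD11c+CD11b+ cells 2 members were higher and 1 lower with anti-PD-1, against 1.91% higher and 4.74% lower over all genes. Hk3 had 256.6 and 257.5 CPM with anti-PD-1, against 172.7 and 178.9 CPM without it (log2 fold change 0.55 ± 0.08, edgeR adjusted p = 0.0148). Pfkfb3 had 293.9 and 299.3 CPM with anti-PD-1, against 213.7 and 230.5 CPM without it (0.42 ± 0.08, edgeR adjusted p = 0.0327), and Ak4 was lower by -0.66 ± 0.12 (edgeR adjusted p = 0.0267). Ak4 was thus lower with anti-PD-1 in all 3 of these populations. They were sorted from the same irradiated pools, so these are not 3 independent results. Fibroblast markers summed to 762.7 and 929.5 CPM with anti-PD-1 in CD11c+CD11b+ cells, against 1118 and 1755 CPM without it, and to 435.1 and 563.5 CPM in CD8 T cells, against 785.8 and 1018 CPM. Whether they bear on Ak4 was not tested.

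In CD11c-CD11b+ cells no member passed for anti-PD-1 and 0.00% of all genes did. At an unadjusted p under 0.05 edgeR gave 5 members and 15.1% of all genes, and DESeq2 called 2 members and 2.74% of all genes. For anti-SIRPa edgeR called 0 of 33 members in each population, where 0.00523% of all genes passed in CD11c+CD11b- cells, 0.156% in CD11c+CD11b+ cells, 0.00% in CD11c-CD11b+ cells and 0.101% in CD8 T cells. At an unadjusted p under 0.05 the members numbered 7 in CD11c+CD11b- cells, 5 in CD11c+CD11b+ cells, 1 in CD11c-CD11b+ cells and 4 in CD8 T cells, against 12.3%, 11.4%, 4.36% and 9.77% of all genes. DESeq2 called 1 member, in CD11c+CD11b- cells, where 1.44% of all genes passed, and 0 members in CD11c+CD11b+, CD11c-CD11b+ and CD8 T cells, where 0.589%, 0.0668% and 0.245% did. All calls for anti-PD-1 were lost when the term for anti-SIRPa was dropped and when no filter on low counts was used. With the term dropped, 0.0426% of all genes passed in CD8 T cells, 0.0156% in CD11c+CD11b+ cells and 0.00523% in CD11c+CD11b- cells. With no filter 0.00% of all genes passed in each, so the calls of nearly all genes were lost with those of the members.

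**Figure D5:**
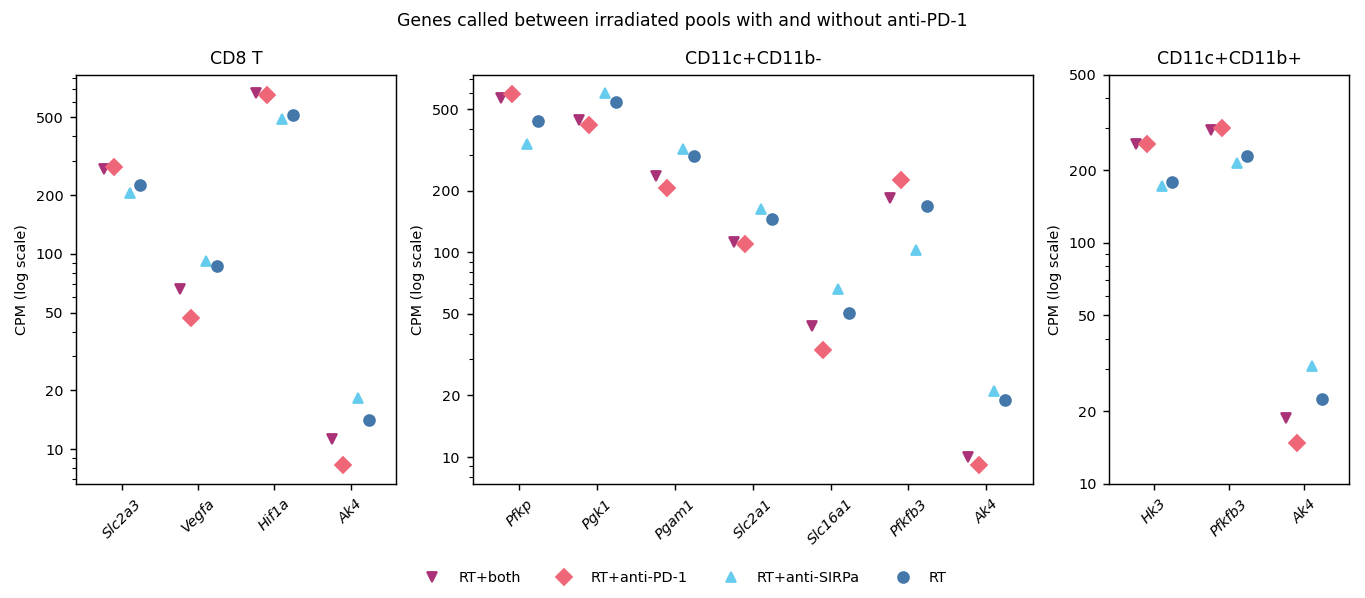
Level (CPM, log axis) of the members called for anti-PD-1 in irradiated CD8 T, CD11c+CD11b- and CD11c+CD11b+ cells, 1 point per library, with the 2 anti-PD-1 pools left of the 2 pools without it. For each gene shown the 2 pairs of points do not overlap, and Ak4 is lower with anti-PD-1 in all 3 populations, which share their pools. Of all 33 members, 24 in CD8 T, 25 in CD11c+CD11b- and 18 in CD11c+CD11b+ cells did not overlap between such pairs. The share of all genes was not counted, so nothing about the members is drawn from these counts.

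Pkm transcripts carry 1 of 2 mutually exclusive exons, and the choice sets whether the M1 or the M2 form of the enzyme is made, the M2 form being the one of dividing and activated cells. The exons lie on the plus strand of chromosome 9 in GRCm38, at chr9:59675029-59675195 (M1) and chr9:59675568-59675734 (M2). Both are 167 bases long, and 103 bases are equal and 64 differ between them. They are shown because reads over the differing bases, in capitals below, are what tells the forms apart.
Pkm M1 exon: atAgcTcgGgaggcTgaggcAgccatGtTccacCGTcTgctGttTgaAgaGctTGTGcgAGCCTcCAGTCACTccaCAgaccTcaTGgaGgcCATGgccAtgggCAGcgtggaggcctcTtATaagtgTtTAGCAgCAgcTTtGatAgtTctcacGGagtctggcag
Pkm M2 exon: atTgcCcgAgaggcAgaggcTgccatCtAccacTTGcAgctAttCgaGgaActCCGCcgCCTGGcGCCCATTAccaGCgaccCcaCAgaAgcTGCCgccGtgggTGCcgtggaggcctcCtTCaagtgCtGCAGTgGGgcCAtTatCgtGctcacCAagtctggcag
Transcripts with the M2 exon made up 95.8 to 98.5% of the transcripts with either exon, per length, in 19 of the 20 libraries. The other was CD11c+CD11b- cells after RT with both antibodies, at 85.9%, against 98.2 to 98.5% in the other 3 irradiated CD11c+CD11b- libraries. The shares rest on the authors' estimates of transcript counts, and no library was repeated.

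Vegfa transcripts differ in the exons that bind the protein to the cell surface. Vegfa-202, with exon 7 and without exon 6, held the largest share in every library, from 69.4 to 93.8% of the 3 main coding transcripts per length. Vegfa-207, with both exons, ran from 17 to 26.2% in CD11c+CD11b+ libraries and from 18.6 to 25.7% in CD11c-CD11b+ libraries. In CD11c+CD11b- cells it was 15.2, 14.6, 15.9, 1 and 14.6% after RT with both antibodies, RT with anti-PD-1, RT with anti-SIRPa, RT alone and untreated. In CD8 T libraries the share of Vegfa-207 ran from 0.588 to 22.2%. These estimates were not tested.

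HIF binds the core letters ACGTG or GCGTG, and promoters were searched for both on both strands over the 250 bases before each RefSeq start (GRCm38.p6). Of the 33 genes 31 had an entry, with 48 starts, and Slc2a3 and Ndrg1 had none. At least 1 match lay in 39 of the 48 windows (81.2%), against 38.6% of all windows and 52.1% of windows of genes tested here. By gene the letters were found for 28 of 31 (90.3%), against 41.5% of all genes and 57.6% of tested genes. Median GC content was 60.4% for the 48 windows, 52.4% for all and 58.8% for tested genes, with a median of 14, 6 and 14 CG pairs. Many of the 33 genes are textbook HIF targets, so these shares are a description and not independent of the choice of genes. The promoters of Ldha, Hk2 and Egln3 are shown because log2 fold changes between CD11c+CD11b- and CD11c+CD11b+ cells were small for Ldha, at -0.22, and larger for Hk2, at -1.58, and Egln3, at -1.63. Matches are in capitals, and CACGTG counts as a match on each strand.
Ldha promoter, chr7:46845554-46845803, plus strand: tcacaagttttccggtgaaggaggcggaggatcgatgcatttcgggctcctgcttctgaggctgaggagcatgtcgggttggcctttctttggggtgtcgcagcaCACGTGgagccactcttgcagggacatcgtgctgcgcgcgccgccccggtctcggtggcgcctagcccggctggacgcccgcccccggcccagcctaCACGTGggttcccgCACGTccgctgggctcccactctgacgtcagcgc
Hk2 promoter, chr6:82774455-82774704, minus strand: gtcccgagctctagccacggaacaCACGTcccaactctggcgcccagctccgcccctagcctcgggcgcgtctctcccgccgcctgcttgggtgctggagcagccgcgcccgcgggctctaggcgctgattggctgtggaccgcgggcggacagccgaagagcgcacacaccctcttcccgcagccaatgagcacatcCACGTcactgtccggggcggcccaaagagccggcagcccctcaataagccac
Egln3 promoter, chr12:54203875-54204124, minus strand: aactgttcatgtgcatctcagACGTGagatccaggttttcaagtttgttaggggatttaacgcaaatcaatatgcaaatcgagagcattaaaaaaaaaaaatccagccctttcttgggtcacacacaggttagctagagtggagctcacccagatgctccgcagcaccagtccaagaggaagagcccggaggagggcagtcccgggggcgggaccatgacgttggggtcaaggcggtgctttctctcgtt
The windows held 5 matches for Ldha, 2 for Hk2 and 1 for Egln3.

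Genes around the module were counted in the same fits, where 23.1% of all genes were higher and 22.3% lower in CD11c+CD11b- cells than in CD11c+CD11b+ cells. Of 24 other HIF target genes, 2 were higher and 17 lower in CD11c+CD11b- cells, with a median log2 fold change of -0.49. Plin2, a lipid droplet protein, averaged 104.4 CPM in CD11c+CD11b- cells and 420.8 CPM in CD11c+CD11b+ cells (-2.01 ± 0.17, edgeR adjusted p = 0.000122). Of 8 tested genes that regulate HIF, 3 were higher and 3 lower. The partner of Hif1a, Arnt, was lower by -0.59 (edgeR adjusted p = 0.0032), and Hif1an, which blocks the activity of HIF, was higher by 0.57 (edgeR adjusted p = 0.00067). Of 11 tested genes for other glycolytic isoenzymes and controls of the pathway, 5 were higher and 2 lower, with a median log2 fold change of 0.32. Of 3 tested gluconeogenesis genes, 1 was higher and 0 lower. Pyruvate oxidation and the TCA cycle, which take pyruvate onward in the mitochondria, had 4 of 22 genes higher and 3 lower. In the pentose phosphate pathway, which branches from the hexokinase product, Pgd and G6pdx were lower by -1.33 and -1.08, and 1 of 7 genes was higher and 3 lower in all. All 15 proliferation genes were higher in CD11c+CD11b- cells, led by Mki67 at 655.2 CPM against 208.0 CPM in CD11c+CD11b+ cells (1.65 ± 0.22, edgeR adjusted p = 0.000999).

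In CD8 T cells against myeloid cells, where 19.5% of all genes were higher and 15.9% lower with all libraries, and 25.3% and 25.4% without the library labelled untreated CD8 T, the counts moved with that library. Of the 24 other HIF target genes, 2 were higher and 10 lower with it, and 2 higher and 15 lower without it. Of 22 genes of pyruvate oxidation and the TCA cycle, 7 were higher and 0 lower with it, and 12 higher and 1 lower without it. All 15 proliferation genes were higher in both fits. Epas1, which encodes HIF-2α, averaged 41.7 ± 10.9 CPM in the 4 irradiated CD8 T libraries (SD) and was at 7.54 CPM in the library labelled untreated CD8 T, against a mean of 6.37 CPM in myeloid libraries. Its log2 fold change was 2.51 ± 0.31 with that library (edgeR adjusted p = 3.99e-05) and 2.88 ± 0.17 without it (edgeR adjusted p = 5.91e-09). Epas1 was also higher with anti-PD-1 in irradiated CD8 T cells, at 50.9 CPM against 32.6 CPM without it (0.63 ± 0.10, edgeR adjusted p = 0.0139). Of the other HIF target genes, 8 of 24 were lower with anti-PD-1 in CD11c+CD11b- cells, 4 in CD8 T cells and 3 in CD11c+CD11b+ cells, against 2.85%, 4.26% and 4.74% of all genes, and none was higher. P4ha2 and Plod2, which modify collagen, were lower in all 3 and were chosen after their values were seen. These 3 populations share their pools, so the results are not independent. Plod2, for example, was at 52.1 CPM with anti-PD-1 against 85.9 CPM without it in CD11c+CD11b- cells (-0.72 ± 0.09, edgeR adjusted p = 0.0201). In CD11c+CD11b+ cells 13 of the 15 proliferation genes were lower with anti-PD-1, with a median log2 fold change of -0.77.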

How the data were processed

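RNA sequencing libraries of 20 groups were used, 1 library per group, with 21.5 to 35.7 M counts each. The authors deposited estimated counts per transcript as whole numbers, per the file's values. Per the submitters' processing notes, FastQC 0.11.8, HISAT2, StringTie, edgeR 3.34.0 and the GRCm38 build were used, and the role of each is not given in the sources used here. Of 142699 transcript rows, 141469 were matched to GENCODE M21 and summed to 55259 genes; the rest held at most 0.4% of a library's counts. A second gene ID of Aldoa, with 442 counts, was merged into the first.

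Tests used R 4.3.3 and edgeR 4.0.16: TMM normalisation, filterByExpr (minimum count 10, minimum total 15), the quasi-likelihood F-test and Benjamini-Hochberg adjustment over all genes tested, with a limit of 0.05. The SE is the log2 fold change divided by the square root of F. Comparisons between populations had the treatment pool as a block, because all 4 populations came from the same pooled tumours. Irradiated pools were tested against 1 untreated library, which is assumed to vary like the irradiated ones. Antibody terms were fitted within irradiated pools. DESeq2 1.42.0, RLE normalisation, no filter, no pool term, added copies (BLAST+ 2.17.0, at least 95% identity over 300 bases) and leaving out each pool were alternatives, and the copies matched by sequence were added after seeing the data. The fit was tested on simulated counts.

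The 33 genes and all lists were chosen with earlier results of these data known. Named with values were, per comparison, up to 6 genes per direction with the largest called difference at a mean of 10 CPM or more. The exception is irradiated against untreated CD8 T libraries, where only Slc2a3 and Vegfa are given. Slc2a1, Hk2, Hk3, Ldha, Ldhb, Pkm, Vegfa, Egln3, Bnip3 and Hif1a are named in each comparison between populations. Other members are named where a role or a lost call asks for it. Promoters came from RefSeq (GRCm38.p6) and exons from GENCODE M21.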

Additional observations from a re-analysis of the deposited data

Results flagged for a closer look

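Of Slc2a1, Hk2, Hk3, Ldha, Ldhb, Pkm, Vegfa, Egln3, Bnip3 and Hif1a, 8 had 1 CD8 T library apart from the other 4. Each time it was the library labelled untreated CD8 T, as the highest. Its levels were 433.1 CPM for Slc2a1, 436.3 CPM for Hk2, 137.1 CPM for Hk3, 9.54 CPM for Ldhb, 2484.1 CPM for Pkm, 569.8 CPM for Vegfa, 128.5 CPM for Egln3 and 209.2 CPM for Bnip3. Among other members, Slc2a3 was lowest there, at 19.6 CPM against 205.3 to 278.2 CPM. Over all 33 members that library was the highest of its 5 for 27 and the lowest for 5. Over all genes at a mean of 1 CPM or more the shares were 37.0% and 39.9%. Macrophage markers were also highest in that library, and their part was not tested.

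Among the genes first listed above, the untreated CD11c+CD11b- library stood apart as the highest of 5 for Vegfa (236.6 CPM), Egln3 (75.4 CPM) and Bnip3 (92 CPM). The untreated CD11c+CD11b+ library did so for Egln3 (151.2 CPM). In CD11c-CD11b+ cells the library with RT and anti-PD-1 stood apart for Bnip3, at 215.4 CPM. The gap to the nearest library was compared with the range of the 5, and chance sets apart about 1 in 20 such groups. The share of all genes set apart by this rule was not counted, so the flags are not shown to be particular to these genes.

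Some genes called for anti-PD-1 in a population moved the other way in both matched pairs of pools of another population, and the difference between populations was not tested. Vegfa had a log2 fold change of -0.70 in CD8 T cells, against 0.26 in CD11c+CD11b+ cells and 0.51 in CD11c-CD11b+ cells. Pgk1 had -0.40 in CD11c+CD11b- cells and 0.13 in CD8 T cells, and Slc16a1 had -0.60 and 0.05. Slc2a1 had -0.47 in CD11c+CD11b- cells and 0.14 in CD11c+CD11b+ cells.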

How the results depend on the processing

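Over 119 called results of single members, 1229 alternative values were computed: 1055 kept direction and call, 174 kept direction and lost the call, and 0 changed direction. With no pool term (no replicate block), 2 members passed in CD11c+CD11b+ against CD11c-CD11b+ cells and 7 in CD8 T against myeloid cells. Of all genes, 5.07% and 25.6% passed. Leaving out each pool in turn gave 4 to 25 in CD8 T against myeloid cells, where 20.8% and 51.2% of all genes passed. For irradiated against untreated libraries it gave 0 to 9 in CD11c+CD11b+ cells, 0 to 18 in CD11c+CD11b- cells and 0 to 10 in CD11c-CD11b+ cells, where DESeq2 called 3, 15 and 4. Antibody terms gave 8 in CD11c+CD11b+ cells and 16 in CD11c+CD11b- cells, where 8.51% and 12.6% of all genes passed. For anti-PD-1, no filter and dropping the anti-SIRPa term each gave 0 in CD8 T, CD11c+CD11b+ and CD11c+CD11b- cells. In the same order, 0.0426%, 0.0156% and 0.00523% of all genes passed with the term dropped, and 0.00% in each with no filter. DESeq2 gave 2 in CD8 T cells and 2 in CD11c-CD11b+ cells, where 4.55% and 2.74% of all genes passed. For anti-SIRPa DESeq2 gave 1 in CD11c+CD11b- cells, where 1.44% of all genes passed. Among single libraries, RT alone against untreated CD11c+CD11b+ cells gave 4 members past 2-fold with CPM by total count and 5 without minor transcript biotypes. Over all genes, 754 of 10037 and 882 of 10019 were past it. Without those biotypes, RT with both antibodies against RT alone gave 1 in CD11c+CD11b- cells and 2 in CD11c-CD11b+ cells. Over all genes, 316 of 9862 and 187 of 9740 were past 2-fold. The cause was not tested. In the antibody fits leaving out a library leaves no residual degree of freedom, so no such value is given. Populations were paired by their shared pool, and the values with no pool term are the unpaired ones. Between treatments no 2 libraries share a pool, so nothing could be paired there. The depth of 21.5 to 35.7 M counts leaves Ldhb, Adm and Eno2 at few counts.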
